A study of Mus musculus with 27 samples.

Results

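Interleukin 6 (IL-6) family signalling was followed through 10 genes, taken from the deposited count matrix by their symbols in the GENCODE M21 mouse annotation, out of 55487 genes in all. They are the ligands Il6, Osm and Lif, the receptor chains Il6ra, Osmr, Lifr and Il6st, the transcription factor Stat3 and its target genes Socs3 and Cebpd. The matrix holds 27 RNA-seq libraries of bulk tissue from 14 male C57Bl/6J wild-type mice, aged 8 weeks when an infusion of 14 days into the right lateral ventricle began, and the sampled cortex and hippocampus were contralateral to the cannula. Each mouse carried an osmotic pump that delivered 0.25 μl/hour. By design the groups differed in what the pump held: α-IgLON5 (human antibodies against IgLON5, a neuronal cell adhesion protein, purified from the plasma of a single patient), a control IgG, or PBS. The infused antibodies are thus human proteins in a mouse, as is the control IgG, which the study's methods describe as IgG from healthy serum and the labels as a non-reactive monoclonal. The hippocampal groups held 5 PBS, 4 control IgG and 4 α-IgLON5 libraries, and the cortical groups 5, 5 and 4. The number in each sample title was taken as that of the mouse. The α-IgLON5 mice carry the numbers 8, 9, 16 and 17, and the control mice lie partly between these numbers and partly above them.

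Cytokines of this family bind a ligand-specific receptor chain that pairs with gp130, the shared signalling chain encoded by Il6st. IL-6 uses Il6ra, oncostatin M uses Osmr, and leukaemia inhibitory factor uses Lifr, which mouse oncostatin M can also engage. The paired chains activate Janus kinases that phosphorylate STAT3, and STAT3 in turn drives Socs3, a feedback inhibitor of gp130, and Cebpd, a transcription factor of the acute phase response. In the brain, oncostatin M is known mainly from myeloid cells, and astrocytes and endothelial cells are known to carry its receptor and to answer gp130 ligands.

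Promoter sequence (RefSeq, build GRCm38.p6) was at hand for 8 of the 10 genes, not for Osm and Cebpd. The 250 bases before each start were searched on both strands for 4 motifs, written with N for any base: TTCNNNGAA for STAT factors, TTNNGNAAT for C/EBP factors, TGANTCA for AP-1, and GGGA and TTTCC with any base between them for NF-κB. Over 32851 mouse promoters of the same length, 7.02% held the STAT motif, 10.2% the C/EBP motif, 6.75% the AP-1 motif and 0.356% the NF-κB motif. Il6 held a C/EBP, an AP-1 and an NF-κB match, Lif an AP-1 match and Socs3 a STAT match, whereas the windows of Il6ra, Il6st, Lifr, Osmr and Stat3 held none of these letters. The Osmr window begins inside an annotated exon and lies within the annotated gene, and is therefore not upstream sequence in the gene annotation used. The windows of Il6 and Socs3 are shown because these genes differed most between 1 mouse and its group in the results that follow. Matches are in capitals, 5′ to 3′ on the strand of the gene, and the Socs3 window is cut where an annotated exon begins. In the gene annotation used, Socs3 runs from 117966079 to 117970047 on the minus strand. The Socs3 stretch shown therefore lies within the annotated gene, and not upstream of it, although it lies before the RefSeq start. Both Lifr windows also lie within the annotated gene. A match is a run of letters and does not show that a factor binds there.
Il6 promoter, chr5:30012864-30013113, plus strand: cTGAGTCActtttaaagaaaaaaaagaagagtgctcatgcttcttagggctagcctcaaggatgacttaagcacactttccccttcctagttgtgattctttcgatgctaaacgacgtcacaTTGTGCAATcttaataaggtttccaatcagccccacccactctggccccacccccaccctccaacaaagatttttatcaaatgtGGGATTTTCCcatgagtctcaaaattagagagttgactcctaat
Socs3 promoter, chr11:117969452-117969616, minus strand: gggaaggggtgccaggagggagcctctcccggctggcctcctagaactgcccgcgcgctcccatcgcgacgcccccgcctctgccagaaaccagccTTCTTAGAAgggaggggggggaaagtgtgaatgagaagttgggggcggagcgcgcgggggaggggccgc

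Library totals ran from 19385642 to 58550621 counts. Levels are given as CPM, read counts scaled to TMM-normalized library sizes. All 27 libraries entered one model in edgeR, whose quasi-likelihood test was run for each pair of groups on the 20271 genes that reached 10 counts in 4 or more libraries. A gene was called where its p, adjusted by the Benjamini-Hochberg procedure over those genes, was under 0.05, and this is the adjusted p printed throughout. Of the 10 genes, 9 passed the count filter and Il6 did not. Although the labels give the cell type as neurons, markers of astrocytes summed to 4316 to 6667 CPM and markers of microglia to 324 to 915 CPM over the libraries, which is tissue with its glia. In bulk tissue, fewer cells of a type and less RNA per cell cannot be told apart. The libraries of α-IgLON5 mouse 8 stood apart in both tissues for several of these genes, and results that rest on them are therefore given with and without them.

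**Figure D1:**
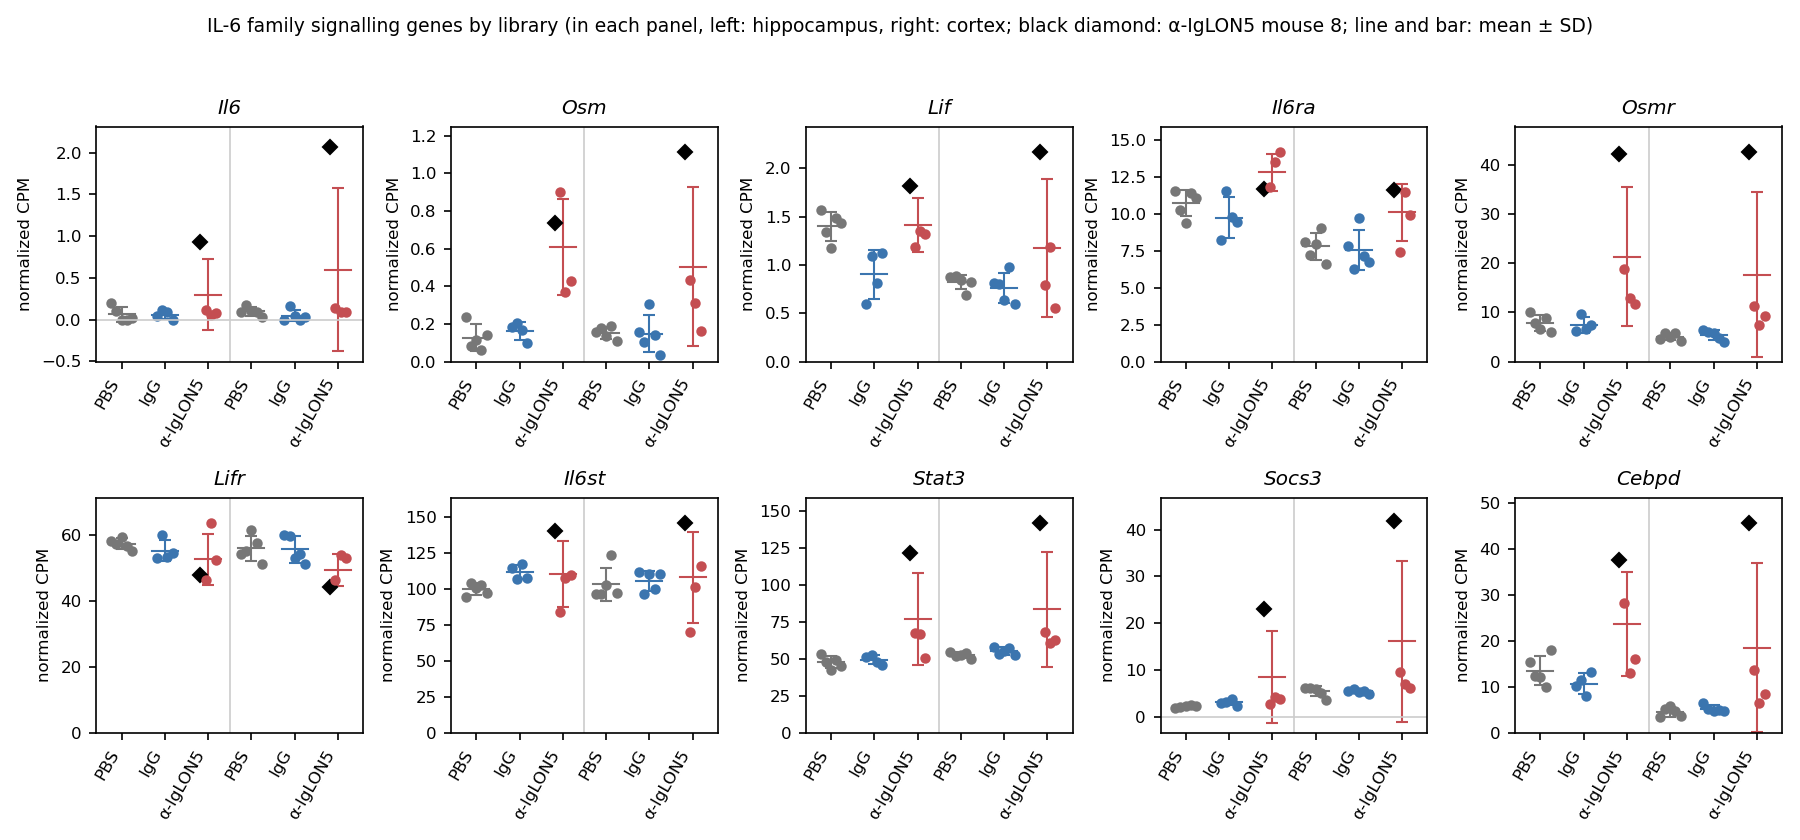
Normalized CPM (vertical axes, linear, a scale of its own for each gene) of the 10 genes in each of the 27 libraries, by tissue and treatment. Points are libraries, lines and bars the mean ± SD of a group, and black diamonds the libraries of α-IgLON5 mouse 8, which lie far above the other α-IgLON5 libraries for Il6, Osmr, Stat3 and Socs3 in both tissues.

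In PBS mice, the receptor chains Il6st and Lifr and the transducer Stat3 were the most abundant of the 10 transcripts, and the ligands the least. Per kb of exon, hippocampal levels were 9.00 ± 0.357 CPM per kb for Il6st (mean ± SD, n = 5), 5.33 ± 0.156 for Lifr, 5.02 ± 0.420 for Stat3, 3.62 ± 0.845 for Cebpd, 1.24 ± 0.104 for Il6ra, 0.777 ± 0.0711 for Socs3, 0.654 ± 0.136 for Osmr, 0.322 ± 0.0348 for Lif, 0.0562 ± 0.0306 for Osm and 0.0269 ± 0.0361 for Il6. In this order the neighbours Lifr and Stat3, Socs3 and Osmr, and Osm and Il6 lay within their spreads of each other. In the cortical order Stat3 stood above Lifr, again within their spreads of each other, and Socs3, at 1.87 ± 0.366 CPM per kb, above Cebpd at 1.21 ± 0.269. Cortical Il6st stood at 9.29 ± 1.04, Stat3 at 5.53 ± 0.204, Lifr at 5.20 ± 0.356, Il6ra at 0.900 ± 0.109, Osmr at 0.421 ± 0.0553, Lif at 0.190 ± 0.0178, Osm at 0.0676 ± 0.0141 and Il6 at 0.0407 ± 0.0219.

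Between the tissues of PBS mice, 3 of the 9 tested genes were called, all lower in cortex, where 26.7% of all tested genes were called in either direction and 12.7% lower. Cebpd fell from 13.6 ± 3.17 CPM in hippocampus to 4.55 ± 1.01 in cortex (n = 5 each), a log2 difference of -1.58 (SE 0.378, adjusted p = 0.00226). Il6ra stood at 10.7 ± 0.896 and 7.78 ± 0.940 CPM (log2 difference -0.46, SE 0.124, adjusted p = 0.00561). Lif stood at 1.40 ± 0.151 and 0.824 ± 0.0775 CPM (log2 difference -0.76, SE 0.253, adjusted p = 0.0256), a call that held without mouse 33 and was lost when any other PBS mouse was left out (adjusted p up to 0.0823). Socs3 was 5.41 ± 1.06 CPM in cortex and 2.25 ± 0.206 in hippocampus, with no overlap between the libraries (log2 difference 1.26, SE 0.486, adjusted p = 0.0555 in edgeR and 0.0369 in DESeq2). With the mouse number as a block, 5 genes were called between the tissues, Osmr and Socs3 in addition. The share of all tested genes called in that fit is not given here, so this rise cannot be told from a general rise in calls.

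Counted over the list, Osm and Osmr were called in α-IgLON5 against control IgG hippocampi, 2 of the 9 tested genes, where 7.01% of all tested genes were called and 4.23% were called higher. Against PBS the hippocampal calls were Osm, Osmr, Stat3 and Socs3, 4 of 9 beside 4.29% of all genes (3.81% higher). In cortex Osmr and Cebpd were called, 2 of 9, against control IgG, where 3.46% of all genes were called (3.01% higher), and against PBS, where 3.05% were (2.97% higher). All of these calls were higher in α-IgLON5 mice. In each of the 4 comparisons, all α-IgLON5 libraries lay above all control libraries for 4 of the 9 genes, where 6.68% and 4.49% of all tested genes did so in hippocampus and 3.68% and 3.14% in cortex (against control IgG and PBS). Both comparisons of a tissue share their α-IgLON5 libraries, and the tissues come from the same 4 α-IgLON5 mice. The median log2 fold change of the 9 genes was 0.64 and 0.68 in hippocampus and 0.62 and 0.67 in cortex (against control IgG and PBS), and that of all tested genes lay between -0.02 and 0.00. With both libraries of mouse 8 left out, the medians of the 9 genes were 0.44 and 0.37 in hippocampus and 0.35 and 0.31 in cortex. Osm reached 10 counts in 7 of 8 α-IgLON5 libraries but in 2 of 19 control libraries, so it passed the count filter through the libraries in which it was high, and its place in these counts is not support for them. Without Osm, the calls in hippocampus were 1 of 8 genes against control IgG and 3 of 8 against PBS, the groups did not overlap for 3 of 8 in either comparison, and the medians were 0.64 and 0.47 (0.61 and 0.59 in cortex).

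Among the ligands, Osm was higher in each α-IgLON5 hippocampus than in each control hippocampus. Oncostatin M is encoded at chromosome 11, 4236420 to 4241026 (GRCm38, plus strand). The α-IgLON5 hippocampi held 0.738, 0.901, 0.368 and 0.430 CPM of Osm (mice 8, 9, 16 and 17), the control IgG hippocampi 0.184, 0.207, 0.167 and 0.0982 CPM (mice 10, 15, 37 and 75), and the PBS hippocampi 0.239, 0.0820, 0.117, 0.0594 and 0.141 CPM (mice 14, 32, 33, 38 and 74). Mouse 8 was not the highest. The log2 fold change was 1.79 against control IgG (SE 0.497, adjusted p = 0.0285) and 2.22 against PBS (SE 0.50, adjusted p = 0.00612). Osm is near the limit of detection here, with 12 to 16 counts in the α-IgLON5 hippocampi and 2 to 11 in the controls, and it could pass the count filter only through the α-IgLON5 libraries, so these values describe the libraries and their p is not independent of the filter. Without both libraries of mouse 8 the fold changes were 1.66 and 2.10 and both were called (adjusted p = 0.0318 and 0.00403). With single hippocampal libraries left out, the call against PBS held each time (adjusted p at most 0.0338), whereas the call against control IgG was lost without control IgG mouse 10, 37 or 75 or α-IgLON5 mouse 8 or 9 (adjusted p up to 0.115, log2 fold changes no lower than 1.55), and with only mice 8 to 17 in the fit (adjusted p = 0.377).

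In cortex, Osm reached 1.11 CPM in α-IgLON5 mouse 8, 0.433 in mouse 9, 0.310 in mouse 16 and 0.161 in mouse 17. Control IgG cortices held 0.0333 to 0.306 CPM and PBS cortices 0.110 to 0.189 CPM, so that the groups overlapped. The log2 fold change was 1.60 (SE 0.486, adjusted p = 0.0687) against control IgG and 1.66 (SE 0.483, adjusted p = 0.0630) against PBS, and neither was called. Without mouse 8 the values were 0.82 and 0.88 (adjusted p = 0.519 and 0.789). Both comparisons were called without α-IgLON5 mouse 16 or 17 (adjusted p = 0.00813 to 0.0407), and the one against control IgG also without control IgG mouse 15 (2.13, adjusted p = 0.0264), the library with the most Osm among the controls.

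Lif (chromosome 11, 4257557 to 4272514, plus strand), whose product acts on neurons and glia through Lifr, was not called in either tissue. Its hippocampal level was 1.42 ± 0.278 CPM in α-IgLON5, 0.905 ± 0.253 in control IgG and 1.40 ± 0.151 in PBS mice. All 4 α-IgLON5 libraries lay above the control IgG libraries (log2 fold change 0.64, SE 0.281, adjusted p = 0.174). Against PBS, mouse 8 lay above all libraries and the other 3 among them (log2 fold change 0.01, SE 0.263, adjusted p = 0.992). The control IgG hippocampi also carried less of the hippocampal markers (545 to 836 summed CPM, PBS 704 to 1024) and more of the neocortical markers (243 to 388, PBS 174 to 266), and Lif, Il6ra and Cebpd are lower in cortex, a relation whose part in these comparisons was not tested. In cortex Lif was highest in mouse 8 at 2.17 CPM, and the other α-IgLON5 libraries held 0.556 to 1.19 CPM beside 0.599 to 0.983 in control IgG mice. The cortical log2 fold changes were 0.62 against control IgG (SE 0.274, adjusted p = 0.261) and 0.50 against PBS (SE 0.269, adjusted p = 0.613). The values of Lif without mouse 8 were 0.14 and 0.03 in cortex, and 0.51 and -0.12 in hippocampus, none of them called.

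Il6 (chromosome 5, 30013114 to 30019981, plus strand) was nearly undetected outside 1 mouse. The 25 libraries of the other mice held 0 to 6 counts each, and the libraries of α-IgLON5 mouse 8 held 76 counts in cortex (2.07 CPM) and 19 in hippocampus (0.935 CPM). The remaining α-IgLON5 libraries held 0.0613 to 0.144 CPM, within the range of the controls, 0 to 0.205 CPM. A library with 0 counts still allows a level of up to 3 counts. Two-sided exact permutation tests of the mean CPM gave p = 0.286 for α-IgLON5 against control IgG and p = 0.206 against PBS in hippocampus, and exact p = 0.0476 and 0.190 in cortex. Over 6 such comparisons, control IgG against PBS included, the smallest adjusted value was 0.286, and the smallest p these designs allow is 0.0286 for 4 against 4 libraries and 0.00794 for 4 against 5. With no count filter, edgeR called Il6 in cortex against control IgG (log2 fold change 3.79, SE 1.01, adjusted p = 0.0408) and in no other of these comparisons, a fit that was not repeated without mouse 8. Without mouse 8, the differences of the means shrank to 0.0244 and 0.0213 CPM in hippocampus and to 0.0617 and 0.0109 CPM in cortex.

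Among the receptors, Osmr rose in α-IgLON5 mice in both tissues and against both controls, and was the only one of the 10 genes called in all 4 of these comparisons. It encodes the signalling chain for oncostatin M (chromosome 15, 6813577 to 6874969, minus strand). In hippocampus the α-IgLON5 libraries held 42.2, 18.8, 12.9 and 11.6 CPM (mice 8, 9, 16 and 17). The control IgG libraries held 6.17, 9.63, 6.54 and 7.46 CPM, and the PBS libraries 10.2, 7.94, 6.69, 8.78 and 6.03 CPM. Every α-IgLON5 hippocampus lay above every control, mouse 8 furthest. Osmr rose by 1.51 on the log2 scale against control IgG (SE 0.406, adjusted p = 0.0238) and 1.43 against PBS (SE 0.380, adjusted p = 0.0261).

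In cortex the α-IgLON5 libraries held 42.7, 11.4, 7.38 and 9.32 CPM of Osmr, the control IgG libraries 6.38, 6.07, 5.77, 4.74 and 3.96 CPM (mice 10, 11, 15, 37 and 75), and the PBS libraries 4.67, 5.79, 4.97, 5.77 and 4.29 CPM. Again the groups did not overlap. The rise was 1.72 on the log2 scale against control IgG (SE 0.388, adjusted p = 0.00872) and 1.79 against PBS (SE 0.387, adjusted p = 0.00497). With both libraries of mouse 8 left out, Osmr remained called at smaller folds, with log2 fold changes of 0.94 and 0.86 in hippocampus (adjusted p = 0.00432 and 0.00526, against control IgG and PBS) and 0.79 and 0.87 in cortex (adjusted p = 0.0237 and 0.009). With only the 1 library of mouse 8 in the tissue compared left out, the fold changes were the same and the calls were lost (adjusted p = 0.185, 0.303, 0.238 and 0.206). The other library of that mouse was then still in the fit, and the cause of the loss was not tested. The hippocampal calls were also lost without control IgG mouse 10 or 37 and without PBS mouse 32, 33 or 74, at adjusted p up to 0.0915. With only the compared groups in the fit, Osmr kept its call in hippocampus against PBS and lost the others (adjusted p = 0.0813, 0.0986 and 0.0861), and with only mice 8 to 17 it was called in neither tissue (1.42 and 1.55, adjusted p = 0.418 and 0.319).

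The other receptor chains were not called in these comparisons by edgeR over all libraries. Il6ra, the ligand-binding chain for IL-6 (chromosome 3, 89864059 to 89913196, minus strand, overlapping Gm42809 on the other strand), stood at 12.8 ± 1.24 CPM in α-IgLON5, 9.73 ± 1.37 in control IgG and 10.7 ± 0.896 in PBS hippocampi, and each α-IgLON5 library lay above each control library. The log2 fold changes were 0.40 (SE 0.137, adjusted p = 0.0768) and 0.26 (SE 0.130, adjusted p = 0.352). In cortex they were 0.42 (SE 0.131, adjusted p = 0.0823) and 0.38 (SE 0.130, adjusted p = 0.175), with α-IgLON5 mouse 9 at 7.43 CPM among the controls and the other 3 libraries at 9.93 to 11.6 CPM. DESeq2 called the cortical value against control IgG (0.42, adjusted p = 0.0494). Left-out libraries turned these values into calls in both tissues (against control IgG without control IgG mouse 15 in hippocampus, adjusted p = 0.0346, and without control IgG mouse 15 or α-IgLON5 mouse 9 in cortex, adjusted p = 0.0178 and 0.0147, and against PBS without mouse 9 in cortex, adjusted p = 0.0232). Mouse 8 was not set apart by Il6ra, at 11.7 CPM in hippocampus, the lowest of its group, and 11.6 in cortex, just above mouse 16. The fold changes of Il6ra without mouse 8 were 0.44 and 0.30 in hippocampus and 0.35 and 0.31 in cortex, none of them called.

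Il6st (chromosome 13, 112464070 to 112510086, plus strand) stood at 110 ± 23 CPM in α-IgLON5 and 111 ± 4.91 in control IgG hippocampi, a log2 fold change of -0.01 with a 95% interval from -0.31 to 0.28 (adjusted p = 0.970). Against PBS the interval ran from -0.13 to 0.42. The α-IgLON5 libraries spread more widely than the controls in both tissues, from 83.8 CPM in mouse 9 to 140.0 in mouse 8 in hippocampus and from 69.9 to 146 in the same mice in cortex. Pericyte and fibroblast markers were also lowest in mouse 9 of the group (154 summed CPM in hippocampus, 163 in cortex) and stood at 358 and 284 in mouse 8. They stood at 228 and 222 in mouse 16 and at 346 and 295 in mouse 17. Il6st was 108 and 101 CPM in mouse 16 and 110 and 116 CPM in mouse 17, so mouse 17 was near mouse 8 in these markers but not in Il6st. The part of these markers in the spread of Il6st was not tested. Lifr (chromosome 15, 7090614 to 7197489, plus strand) stood at 52.7 ± 7.82 CPM in α-IgLON5 and 55.3 ± 3.21 in control IgG hippocampi (log2 fold change -0.07, interval -0.23 to 0.10). In cortex it stood at 49.5 ± 4.82 and 55.8 ± 4.04 CPM (log2 fold change -0.17, interval -0.33 to -0.01, unadjusted p = 0.037 in edgeR, adjusted p = 0.279).

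Stat3, the transcription factor shared by these receptors (chromosome 11, 100885098 to 100939540, minus strand, overlapping Stat5a on the other strand), rose in α-IgLON5 hippocampi against PBS. The α-IgLON5 hippocampi held 122, 67.7, 67.0 and 51.0 CPM (mice 8, 9, 16 and 17), the control IgG hippocampi 51.5, 52.9, 47.8 and 46.3 CPM, and the PBS hippocampi 53.3, 47.9, 42.8, 49.6 and 45.4 CPM. Mouse 17 lay among the controls and the other 3 α-IgLON5 libraries above them. On the log2 scale the difference was 0.68 against PBS (SE 0.196, adjusted p = 0.0439) and 0.63 against control IgG (SE 0.208, adjusted p = 0.0653). Without mouse 8 the fold changes fell to 0.37 and 0.32 and both were called (adjusted p = 0.00348 and 0.0261). With single libraries left out, the call against PBS was lost without PBS mouse 32, 33, 38 or 74 or α-IgLON5 mouse 8 or 9 (adjusted p up to 0.390), and the value against control IgG became a call without α-IgLON5 mouse 16 or 17 (adjusted p = 0.0498 and 0.0205) and in DESeq2 (adjusted p = 0.0321). Against PBS the call was also lost with only the compared groups in the fit (adjusted p = 0.12) or with 10 counts required in every library (adjusted p = 0.0557).

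In cortex Stat3 stood at 142, 68.6, 60.8 and 63.0 CPM in the α-IgLON5 libraries, all above the control IgG (52.9 to 58.1 CPM) and PBS libraries (49.8 to 54.8 CPM). The log2 fold changes of 0.59 (SE 0.195, adjusted p = 0.104) and 0.67 (SE 0.195, adjusted p = 0.0647) were not called by edgeR, and DESeq2 called the value against PBS (adjusted p = 0.0192). Without mouse 8 they were 0.21 (adjusted p = 0.249) and 0.28 (adjusted p = 0.0556). Without α-IgLON5 mouse 16 both were called (adjusted p = 0.0369 and 0.0201), and without mouse 9 or 17 the value against PBS was (adjusted p = 0.0472 and 0.0277).

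Of the target genes, Socs3 (chromosome 11, 117966079 to 117970047, minus strand) was where mouse 8 stood out most after Il6. In hippocampus the α-IgLON5 libraries held 23.1, 2.82, 4.32 and 3.70 CPM, the control IgG libraries 3.0, 3.20, 3.69 and 2.33 CPM, and the PBS libraries 1.94, 2.17, 2.26, 2.46 and 2.40 CPM. Mouse 8 held 6.41 times the mean of the other 3 α-IgLON5 hippocampi. These 3 lay above the PBS libraries and partly among the control IgG libraries. The log2 fold change was 1.90 against PBS (SE 0.509, adjusted p = 0.0274) and 1.45 against control IgG (SE 0.530, adjusted p = 0.0959), and without mouse 8 it was 0.70 (adjusted p = 0.0236) and 0.26 (adjusted p = 0.510). The call against PBS was lost when PBS mouse 14, 32, 33 or 74 was left out (adjusted p = 0.0549 to 0.0663) and when only the hippocampal library of mouse 8 was (adjusted p = 0.57), and with only the compared groups in the fit (adjusted p = 0.107).

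In cortex Socs3 stood at 41.8, 9.60, 7.0 and 6.15 CPM in α-IgLON5 mice 8, 9, 16 and 17. Control IgG cortices held 4.76 to 6.02 CPM and PBS cortices 3.66 to 6.15 CPM, just under mouse 17. The log2 fold change was 1.57 against either control (SE 0.482 and 0.480, adjusted p = 0.0733 against control IgG and 0.0869 against PBS), and 0.48 against either without mouse 8 (adjusted p = 0.205 and 0.252). Without α-IgLON5 mouse 16 or 17, which leaves mouse 8 more weight, both were called (adjusted p = 0.0280 to 0.0317).

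Cebpd, a single-exon gene on chromosome 16 (15887286 to 15891031, plus strand) that lies opposite Spidr, rose in α-IgLON5 cortices. They held 45.7, 13.6, 6.60 and 8.37 CPM (mice 8, 9, 16 and 17), the control IgG cortices 6.57, 5.11, 4.66, 4.95 and 4.85 CPM, and the PBS cortices 3.38, 5.26, 5.75, 4.67 and 3.68 CPM. The groups did not overlap, although mouse 16 and the highest control were nearly level. Cebpd rose by 1.82 on the log2 scale against control IgG (SE 0.392, adjusted p = 0.00552) and 2.03 against PBS (SE 0.393, adjusted p = 0.00170). Without mouse 8 it was 0.85 (adjusted p = 0.0878, no longer called) and 1.06 (adjusted p = 0.0165). With only the compared groups in the fit neither was called (adjusted p = 0.0969 and 0.0757), nor was the former with only mice 8 to 17 (adjusted p = 0.250). In hippocampus Cebpd stood at 37.7, 28.3, 13 and 16.2 CPM in α-IgLON5 mice, with mice 8 and 9 above all controls and mice 16 and 17 within the range of PBS mice (9.94 to 18.1 CPM). The log2 fold changes of 1.14 against control IgG (SE 0.402, adjusted p = 0.0852) and 0.80 against PBS (SE 0.375, adjusted p = 0.303) were not called, the former becoming a call without α-IgLON5 mouse 16 (1.34, adjusted p = 0.0383). Without mouse 8 they were 0.82 (adjusted p = 0.0686) and 0.49 (adjusted p = 0.423).

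**Figure D2:**
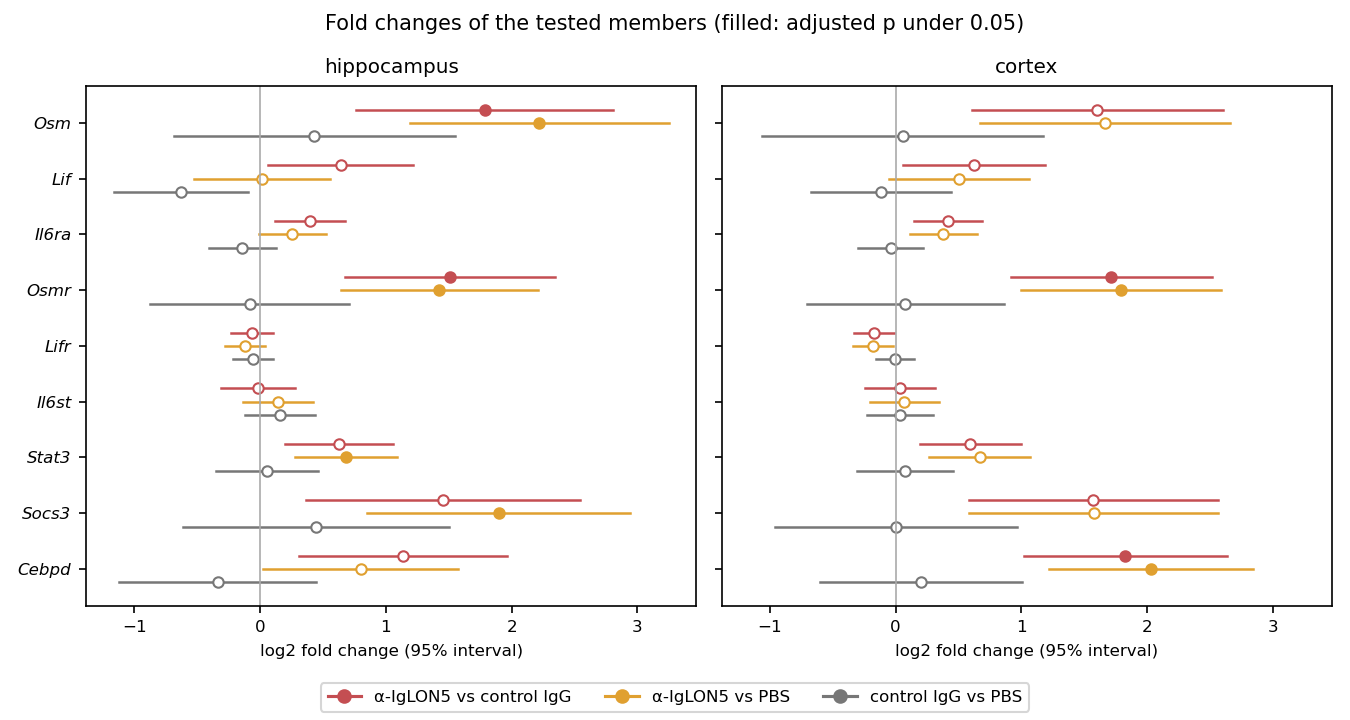
Log2 fold changes (horizontal axis) of the 9 tested genes with 95% intervals for α-IgLON5 against control IgG (red), α-IgLON5 against PBS (yellow) and control IgG against PBS (grey) in hippocampus and cortex. Filled points have an adjusted p under 0.05: only Osmr is filled in all 4 α-IgLON5 comparisons, and no grey point is filled.

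The comparison of control IgG with PBS asks whether a human antibody alone changes these genes. In hippocampus, edgeR called 0 of the 9 genes between control IgG and PBS, with 1 at an unadjusted p under 0.05, and 0.192% of all genes were called. That gene was Lif, lower in control IgG mice at 0.905 ± 0.253 against 1.40 ± 0.151 CPM (log2 fold change -0.63, SE 0.260, adjusted p = 0.257). In cortex 0 of 9 were called, 0 at an unadjusted p under 0.05, and 0.00% of all genes. DESeq2 also called 0 in either tissue.

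The response of the genes was not shown to differ between tissues. Tested as the hippocampal minus the cortical effect of α-IgLON5, 0 of 9 genes were called by edgeR against control IgG (0 at an unadjusted p under 0.05, 0.00% of all genes called) and 0 against PBS (1 at an unadjusted p under 0.05, 0.00493% of all genes called), and DESeq2 called 0. The largest difference was that of Cebpd, whose effect against PBS was smaller in hippocampus by a log2 difference of -1.23 (SE 0.545, unadjusted p = 0.0328, adjusted p = 1). For Osmr the 95% interval of the difference against control IgG ran from -1.35 to 0.94 on the log2 scale, and for Osm from -1.28 to 1.65. With the mouse number as a block the count was also 0 in both comparisons.

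**Figure D3:**
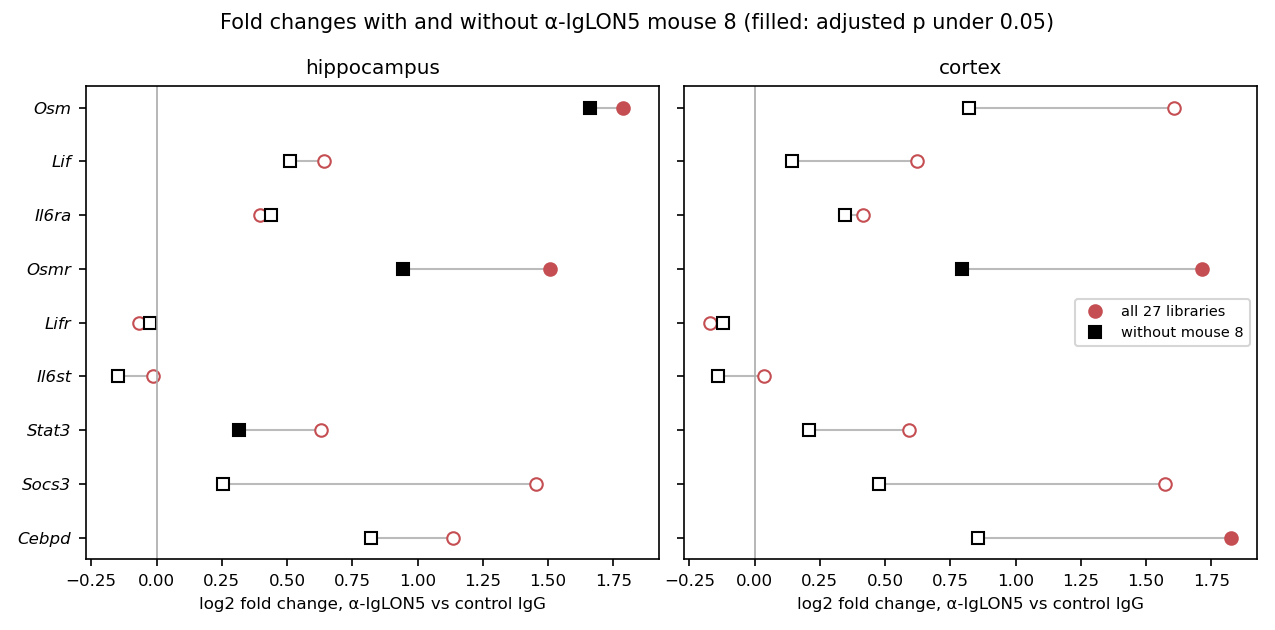
Log2 fold changes (horizontal axes) of the 9 tested genes, α-IgLON5 against control IgG, with all 27 libraries (red circles) and with both libraries of α-IgLON5 mouse 8 left out (black squares). Filled symbols have an adjusted p under 0.05. Osmr stays filled in both tissues at a smaller fold, hippocampal Osm hardly moves, and Socs3 drops from 1.45 to 0.26 in hippocampus.

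The share of mouse 8 in these values differed between genes. Over the mean of the other 3 α-IgLON5 libraries, it stood 10.8 times higher in hippocampus and 18.8 times in cortex for Il6, 2.92 and 4.56 times for Osmr, 1.97 and 2.22 times for Stat3, 1.96 and 4.8 times for Cebpd, and 1.30 and 3.70 times for Osm, but 0.887 and 1.21 times for Il6ra and 0.886 and 0.866 times for Lifr. Markers of other cells in mouse 8 moved with this in part. Its border or infiltrating macrophage markers summed to 53.4 CPM in hippocampus and 72.4 in cortex (25.6 to 38.7 in the other α-IgLON5 libraries), its B cell markers to 7.92 and 6.52 CPM (others 1.44 to 5.82), its T cell markers to 5.27 and 4.37 CPM (others 1.96 to 3.98), its neutrophil markers to 29.7 and 37.2 CPM (others 15.8 to 28.3), and its microglial markers to 499 and 480 CPM, the lowest of the α-IgLON5 group in either tissue. Its astrocyte markers, at 6064 and 5863 CPM, lay inside the range of its group. The part of these cells in the result was not tested.

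Beyond the 10 genes, 50 further genes of the pathway were followed, of which 45 were tested. In hippocampus 16 were called against control IgG and 16 against PBS, and in cortex 14 and 14, each of them higher in α-IgLON5 mice, where 7.01%, 4.29%, 3.46% and 3.05% of all genes were called. The list was put together with earlier results of these data known, so its direction is no independent evidence. Without mouse 8 the counts were 13, 13, 8 and 13 of 45, where 3.69%, 3.53%, 1.89% and 2.17% of all genes were called.

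Among the other ligands, Ebi3 rose from 0.315 ± 0.158 CPM in control IgG to 1.56 ± 0.515 in α-IgLON5 hippocampi (log2 fold change 2.27, SE 0.392, adjusted p = 0.000511) and by 2.15 in cortex (SE 0.390, adjusted p = 0.000974). Its product is the shared subunit of IL-27 and IL-35. The receptor chains Il11ra1, Cntfr, Il27ra and Il31ra gave 0 calls of 4 in edgeR against control IgG in either tissue, with 1 in hippocampus and 2 in cortex at an unadjusted p under 0.05, and DESeq2 called 1 and 0.

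Of the enzymes that act on the pathway, Adam17, the protease that sheds the IL-6 receptor, rose modestly in both tissues. It went from 20.3 ± 1.47 to 27 ± 1.31 CPM in hippocampus (log2 fold change 0.41, SE 0.0899, adjusted p = 0.00557) and from 19.2 ± 0.888 to 24.7 ± 2.92 in cortex (log2 fold change 0.36, SE 0.0852, adjusted p = 0.0120), the cortical call being lost without mouse 8 (0.28, adjusted p = 0.128). Of the kinases, Jak1 and Jak2 were not called, with log2 fold changes of 0.07 and -0.04 in hippocampus, and Tyk2 passed narrowly there (0.32, SE 0.0971, adjusted p = 0.0471), a call lost without mouse 8 (adjusted p = 0.125) and without α-IgLON5 mouse 9 or control IgG mouse 10, 37 or 75. Of the 7 inhibitors, Ptpn6 alone was called against control IgG in either tissue. It encodes SHP-1, a phosphatase of haematopoietic cells, and rose from 3.49 ± 0.295 to 15.5 ± 5.66 CPM in hippocampus (log2 fold change 2.14, SE 0.226, adjusted p = 1e-06) and from 3.48 ± 0.331 to 12.3 ± 4.44 in cortex (log2 fold change 1.81, SE 0.212, adjusted p = 9.15e-06). The hippocampal and cortical calls of Ptpn6 and Ebi3 held with each library left out.

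The genes known to respond to gp130 or STAT3 held most of the calls. Of 21 tested, 11 were called against control IgG in hippocampus (median log2 fold change 1.31, all tested genes 0.00) and 10 in cortex (median 1.46), where 4.23% and 3.01% of all genes were called higher. Without mouse 8 the counts were 9 and 6, where 3.69% and 1.89% of all genes were called. Saa3, which encodes a serum amyloid A protein, reached 10 counts in all 8 α-IgLON5 libraries and in 1 of 19 control libraries, so it passed the count filter through the libraries in which it was high. Leaving it out, 10 and 9 of 20 were called (medians 1.28 and 1.24). Gfap, the intermediate filament of reactive astrocytes, rose from 452 ± 51.4 to 1120.2 ± 289 CPM in hippocampus (log2 fold change 1.31, SE 0.265, adjusted p = 0.00262) and by 1.46 in cortex (SE 0.248, adjusted p = 0.000477), and without mouse 8 by 1.2 and 0.98 (adjusted p = 0.000553 and 0.00397). Icam1, an adhesion molecule for leukocytes, rose by 1.78 (SE 0.394, adjusted p = 0.00587) and 2.09 (SE 0.374, adjusted p = 0.000863), and without mouse 8 by 1.18 and 1.34 (adjusted p = 0.000798 and 0.000227), the hippocampal call being lost with only that library of mouse 8 left out. Cd14, the co-receptor for lipopolysaccharide, rose by 2.67 (SE 0.441, adjusted p = 0.000295) and 2.88 (SE 0.419, adjusted p = 8.54e-05), and without mouse 8 by 2.35 and 2.01 (adjusted p = 2.15e-05 and 0.000222).

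The α-IgLON5 hippocampi held 29.1, 42.9, 3.06 and 6.16 CPM of Saa3 (mice 8, 9, 16 and 17), beside 0.0238 to 0.376 CPM in control IgG hippocampi. The α-IgLON5 cortices held 51.8, 42.6, 2.62 and 2.31 CPM, beside 0.0471 to 0.160 CPM in control IgG cortices. Mice 8 and 9 were high and mice 16 and 17 lower in both tissues, and each α-IgLON5 library lay above each control IgG library. Lcn2, the iron-sequestering lipocalin, held 9.94 ± 10.0 against 0.770 ± 0.258 CPM in hippocampus (log2 fold change 3.66, SE 0.880, adjusted p = 0.0116) and 9.41 ± 12.5 against 0.465 ± 0.139 in cortex (4.32, SE 0.881, adjusted p = 0.00325), the latter call being lost without mouse 8 (2.82, adjusted p = 0.0540) and the former with only the hippocampal library of mouse 8 left out. Serpina3n, a protease inhibitor of reactive astrocytes, rose by 1.83 in hippocampus (SE 0.472, adjusted p = 0.0183) and 2.61 in cortex (SE 0.468, adjusted p = 0.000877), and without mouse 8 by 1.51 and 1.48. In hippocampus the Serpina3n call was lost without control IgG mouse 10 or 37 or α-IgLON5 mouse 9, or without the hippocampal library of mouse 8 alone.

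In a further 4 response genes the size of the change shrank without mouse 8. Steap4, a metalloreductase, rose by 4.05 in hippocampus (SE 0.811, adjusted p = 0.00235) and 3.26 in cortex (SE 0.723, adjusted p = 0.00750), and without mouse 8 by 2.87 (adjusted p = 0.000434) and to a value of 1.58 in cortex that was not called (adjusted p = 0.0738). Bcl3, an NF-κB cofactor, rose by 2.70 (SE 0.739, adjusted p = 0.0261) and 3.61 (SE 0.745, adjusted p = 0.00365), and without mouse 8 by 1.23 and 1.89. The hippocampal call of Bcl3 was lost without control IgG mouse 10, 37 or 75, and the calls of either tissue were lost with only that tissue's library of mouse 8 left out. A2m, a broad protease inhibitor, rose in cortex by 2.59 (SE 0.596, adjusted p = 0.0103), and without mouse 8 the value was 0.73 (adjusted p = 0.222). Il4ra, the IL-4 receptor chain, rose in cortex by 1.01 (SE 0.270, adjusted p = 0.0328), and without mouse 8 the value of 0.56 was not called (adjusted p = 0.0944). The Il4ra call was also lost without control IgG mouse 10, 11, 37 or 75.

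**Figure D4:**
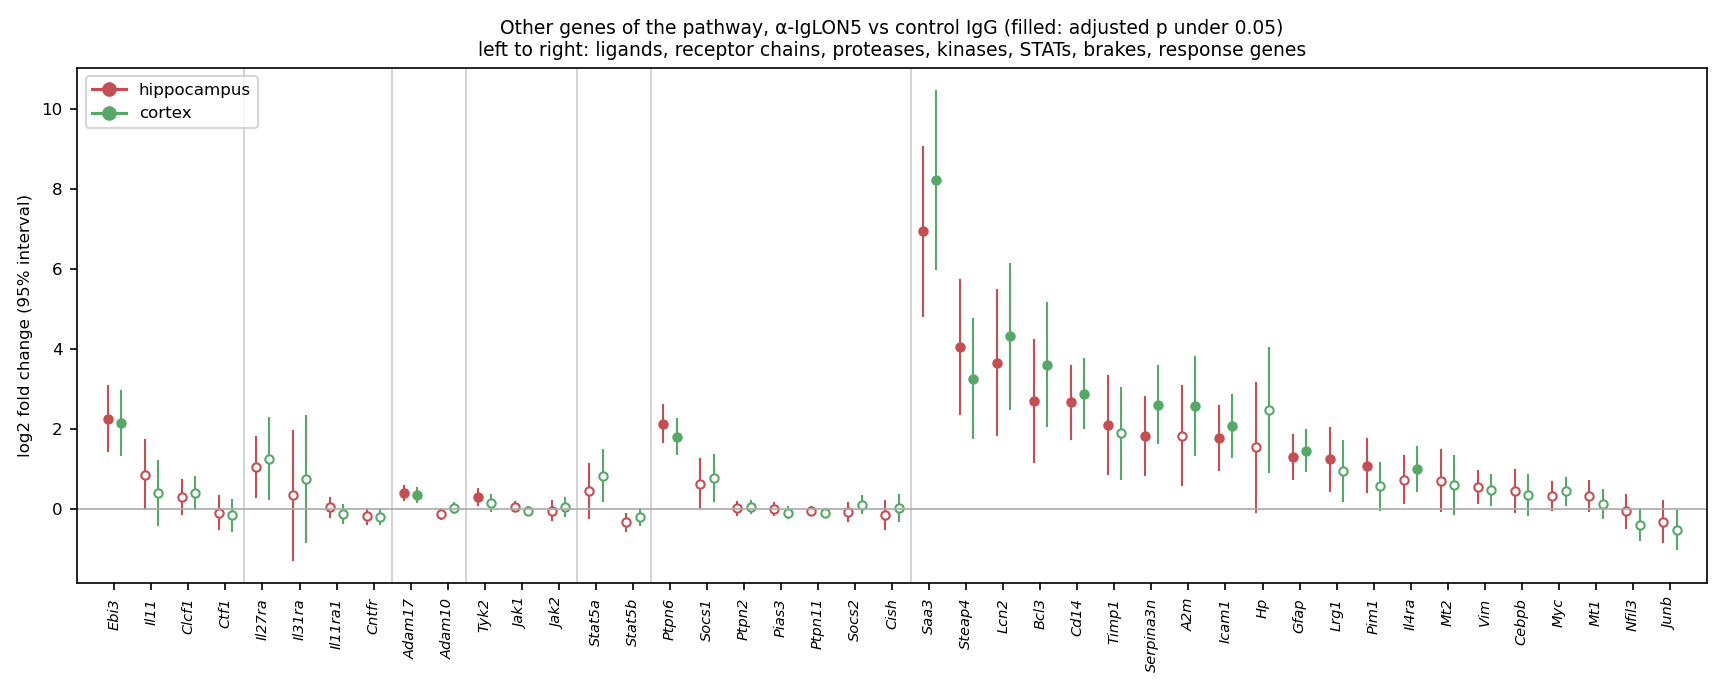
Log2 fold changes (vertical axis) with 95% intervals for 43 tested genes of the wider pathway, α-IgLON5 against control IgG, in hippocampus (red) and cortex (green), grouped by role. Filled points have an adjusted p under 0.05: the filled points are all above 0, and most lie among the response genes at the right.

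Markers of other cells moved with treatment beside these genes. Microglial markers summed to 499 to 915 CPM in α-IgLON5 hippocampi (control IgG 356 to 405, PBS 324 to 391) and to 480 to 550 CPM in cortices (controls 347 to 421), with 6 of 8 markers called higher in hippocampus and 2 of 8 in cortex against control IgG. Of the 8 border or infiltrating macrophage markers, 3 were called higher in hippocampus and 4 in cortex, while Lyve1, a marker of resident border macrophages, was called lower in both (log2 fold changes -1.81 and -1.35). Of 5 B cell markers, 4 were called higher in hippocampus and 2 in cortex, from sums of 0.659 to 1.51 CPM in the controls to 1.44 to 7.92 in α-IgLON5 mice. DESeq2 called 3 in each tissue against control IgG. Sums this low leave few counts per gene in the controls. Whether each marker passed the count filter without the α-IgLON5 libraries was not checked, so these calls describe the libraries only. Of 6 T cell markers, 2 could be tested and Cd4, which macrophages and microglia can also carry, was called higher in hippocampus. T cell sums were 0.773 to 1.75 CPM in the controls and 1.96 to 5.27 in α-IgLON5 mice.

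Neutrophil markers summed to 15.8 to 37.2 CPM in α-IgLON5 mice and 6.32 to 12.6 in controls, of which Csf3r, which myeloid cells at large carry, made up 14.4 to 27.9 CPM. The defining marker Ly6g was at 0 in all α-IgLON5 cortices and at most 0.106 CPM in any library, Retnlg at most 0.435 and Mmp8 at most 0.489 CPM. S100a8, S100a9 and Cxcr2 make up the rest of these sums and are not given singly. Of the 7 neutrophil markers 3 could be tested, and DESeq2 called 1 of them higher in each tissue against control IgG. Of the 8 astrocyte markers, 0 were called by edgeR or DESeq2 against control IgG in either tissue, with 0 in hippocampus and 1 in cortex at an unadjusted p under 0.05. The 7 endothelial and the 7 pericyte or fibroblast markers, the 5 tested choroid plexus markers and the 5 oligodendrocyte markers gave 0 calls by edgeR in both comparisons, with 2 choroid plexus markers at an unadjusted p under 0.05 in hippocampus and 1 endothelial and 1 pericyte or fibroblast marker in cortex. DESeq2 called 1 endothelial marker lower in cortex and 0 of the others. The neuronal marker Tubb3 was called lower in hippocampus, 1 of 6, and 1 of 6 neocortical markers was called lower in each tissue. Of 6 hippocampal markers, edgeR called 0 in either tissue, with 2 and 1 at an unadjusted p under 0.05, and DESeq2 0 and 1. The part of any of these cells in the fold changes above was not tested.

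Over the 27 libraries, with the mean of each tissue subtracted, the genes whose log2 CPM ran most alike to Osm were Ppp1r18 (Pearson r = 0.91, without mouse 8 0.86 over 25 libraries), Clec5a (0.90 and 0.85) and Ccl9 (0.90 and 0.84). For Osmr they were Tnfrsf1b (0.96 and 0.89), Clec4e (0.96 and 0.87) and Nfkb2 (0.96 and 0.87). Within the list, Osmr and Stat3 ran together at r = 0.95, and at 0.85 without mouse 8, whereas Socs3 and Stat3 fell from 0.93 to 0.59. Osmr and Il6st ran at 0.35 with and -0.43 without mouse 8. These correlations describe the libraries, which share their normalization and fall into treatment groups.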

How the data were processed

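The authors deposited a matrix of raw read counts per gene for 27 libraries, made with a stranded mRNA kit from cortex and hippocampus. STAR is named in the submitters' processing notes (listed version 1.4.0), and the counting program and its use of strand are not given in the sources used here, so reads of overlapping genes may be shared. Gene identifiers were paired with symbols and positions through GENCODE M21 (GRCm38). Libraries were grouped by their labels into 6 groups. Counts were fitted in R 4.3.3 with edgeR 4.0.16 (limma 3.58.1), TMM normalization, the quasi-likelihood test and Benjamini-Hochberg adjustment over all 20271 tested genes. Each member was described, and of the pathway list the 12 genes with the smallest p among the hippocampal calls against control IgG plus those called only in cortex. Tyk2, Jak1, Jak2, the 4 further receptor chains and single markers were named after their values were seen. Of the pathway genes so selected, 2 are not reported here by name and are not plotted, and the counts over the list hold them. Il6, under the count filter, was compared by exact permutation tests. The members and lists were chosen with earlier results of these data known. Likeness used log2 CPM with a prior count of 1.

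Alternatives were DESeq2 1.42.0, RLE size factors, other count filters, a fold above 2, fewer libraries in the fit, the mouse number as a block and each library left out. The mouse number was read as pairing the tissues of an animal: over 13 mice with both tissues, the correlation of the deviations from the group means ran from -0.0518 to 0.459 with a median of 0.192, above 0.1 in 8. In α-IgLON5 mice 8, 9, 16 and 17 it was 0.459, 0.430, 0.274 and 0.368, the highest values of all. No pair of libraries within a group agreed within sampling noise (lowest chi-square per degree of freedom 4.82 over 48 pairs). The fits were checked on simulated counts.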

Additional observations from a re-analysis of the deposited data

Results flagged for a closer look

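Of 60 groups of 4 or 5 libraries tested for a sample far from the others (Dixon's criterion at 95%), 8 held one, and chance gives about 1 in 20. In 6 of the 8 that library was α-IgLON5 mouse 8. Its Il6 level was 2.07 CPM in cortex and 0.935 CPM in hippocampus. Its Socs3 level was 41.8 CPM in cortex and 23.1 CPM in hippocampus. In cortex its Osmr level was 42.7 CPM and its Stat3 level 142 CPM. The other two libraries were control IgG mouse 10 in cortex, with 6.57 CPM of Cebpd where the rest of its group held 4.66 to 5.11 CPM, and PBS mouse 38 in cortex, with 123 CPM of Il6st where the rest held 96.2 to 103 CPM.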

How the results depend on the processing

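Of 1455 values recomputed under alternatives, 1265 were unchanged. For fold changes and Il6 differences this means the same direction and the same side of the threshold. For counts of called genes it means a count equal or close to that of the fit over all libraries. Many of these values belong to comparisons without a call, so the total does not measure how stable the calls are. Depth limits Il6 and Osm, which held under 20 counts in most libraries, and with 4 or 5 mice per group a single library moved most calls. Where a value moved, the cause was not tested beyond the loss of genes or libraries that an alternative brings with it.

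The mouse number as a replicate block was run for the PBS tissues and both tissue differences, since groups compared within a tissue share no mouse. The fit of all 27 libraries still counts the tissues of a mouse as independent in its estimate of the spread. The effect of this on the comparisons within a tissue was not tested by itself. The block raised the genes called between PBS tissues from 3 to 5, and edgeR gave 0 for both tissue differences as before. It turned the tissue difference against control IgG to 0.04299 for Il6ra and 0.003703 for Il6st. For the PBS tissues, fitting the compared groups alone also gave 5 genes and a fold above 2 gave 1. With no count filter, the genes called in cortex were 4 against control IgG (Il6 and Socs3 added) and 4 against PBS (Socs3 and Stat3 added). At least 10 counts in every library, which leaves out Osm, gave 1 and 2 in hippocampus (against control IgG and PBS), with 9 and 9 pathway genes in cortex. The compared groups alone gave 1 and 2 in hippocampus and 0 and 0 in cortex by edgeR (7 and 7 at an unadjusted p under 0.05, DESeq2 over all libraries 3 and 3), with 7 pathway genes against control IgG in hippocampus and 7 and 7 in cortex. Mice 8 to 17 alone gave 0 genes and 1 pathway gene in hippocampus and 0 and 0 in cortex against control IgG (1 and 2 genes, and 14 and 17 pathway genes, at an unadjusted p under 0.05). The share of all tested genes called is not given for the alternatives above, nor for the fits that left out a single library. A change particular to these genes therefore cannot be told there from a general gain or loss of calls. Leaving out both libraries of mouse 8, an alternative chosen after seeing the data, gave 1 gene and 8 pathway genes in cortex against control IgG.

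Over the fits that left out a library, the genes called ran from 0 to 4 and 1 to 4 in hippocampus, 0 to 5 and 1 to 5 in cortex, and 2 to 3 between PBS tissues, and the pathway genes from 8 to 20 and 9 to 16 in hippocampus and 7 to 17 and 7 to 20 in cortex. The Il6 difference ran from 0.02442 to 0.3157 and 0.02131 to 0.3126 CPM in hippocampus, from 0.06173 to 0.7202 and 0.0109 to 0.6694 in cortex, and for control IgG against PBS from -0.01998 to 0.03172 and -0.07876 to -0.0312.

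Values near 0 changed sign, none of them a call. With no count filter these were Lif in hippocampus against PBS (-0.01113) and the tissue differences of Lif (-0.04134) and Stat3 (-0.03112) against control IgG and of Stat3 against PBS (-0.04212, and -0.00735 at 10 counts in every library). Without mouse 8 they were Lif in hippocampus against PBS (-0.1157), Il6st in cortex (-0.1418 and -0.1066), and the tissue differences of Il6ra (0.09306) and Osmr (0.1491) against control IgG. With single libraries left out, log2 values ran through 0 for α-IgLON5 in Il6st (-0.1484 to 0.09143 in hippocampus against control IgG, -0.1419 to 0.1939 and -0.1066 to 0.2292 in cortex) and Lif (-0.1164 to 0.06947 in hippocampus against PBS). For control IgG against PBS they did so in cortex for Il6ra (-0.1491 to 0.02297), Lifr (-0.03672 to 0.02858), Osm (-0.4685 to 0.3083) and Socs3 (-0.1113 to 0.0538), and in hippocampus for Osmr (-0.2331 to 0.01958). For the tissue differences they did so against control IgG for Il6ra (-0.1059 to 0.09306), Lif (-0.1985 to 0.3667), Osm (-0.2063 to 0.8394), Osmr (-0.3582 to 0.1491) and Stat3 (-0.0281 to 0.1091), and against PBS for Il6st (-0.01101 to 0.1165), Lifr (-0.004636 to 0.09547) and Stat3 (-0.04878 to 0.08835). Between PBS tissues it was Il6st (-0.02323 to 0.08527).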
